A study of Mus musculus with 8 samples.

Results

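CatSper is the calcium channel of the sperm tail, and 8 of the 54087 genes in the deposited count files encode subunits of it under the names Catsper1, Catsper2, Catsper3, Catsper4, Catsperb, Catsperd, Catsperg1 and Catsperg2. The 8 genes were taken by name, with earlier results of these data known. All 8 were among the 23353 genes that passed the filter on low counts. The RNA was that of the whole testis in male mice of strain C57BL/6, either wildtype (Dnmt3A WT/WT, here WT) or homozygous for a knockout allele (Dnmt3A KO/KO, here KO) of Dnmt3a, which encodes an enzyme that methylates DNA. The ages were 19 and 25 days post partum (dpp), which gave 4 groups of 2 libraries each and no treatment. The labels say neither which part of Dnmt3a was removed nor in which cells, and do not say whether the libraries of a group came from separate animals, so that p-values measure only the spread between these libraries.

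In mature sperm, the proteins of Catsper1, Catsper2, Catsper3 and Catsper4 each contribute one of the subunits around a shared calcium-conducting pore, and the products of Catsperb, Catsperd and the gamma genes are auxiliary subunits that span the membrane beside it. Calcium entering through this channel drives the strong, asymmetric tail beat called hyperactivated motility, and male mice that lack a pore subunit are infertile. The RNAs are made during spermatogenesis, in which spermatogonia become spermatocytes, spermatocytes pass through meiosis, and the haploid round spermatids that result elongate into sperm.

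Gene totals ran from 22515812 to 50445334 counts per library. Levels below are CPM, counts over the TMM-scaled library size in units of 1000000, and a level per kilobase divides them by the exon length of the gene in GENCODE M21. Fold changes are log2 values with their standard error (SE) from a quasi-likelihood fit in edgeR, and its p-values were adjusted over all 23353 genes by Benjamini-Hochberg and called below 0.05. For Dnmt3a itself, WT had 147 and 141 CPM and KO 114 and 112 CPM at 19 dpp, whereas at 25 dpp WT had 48.7 and 70.0 CPM and KO 76.8 and 67.2 CPM. Dnmt3a was not called in KO against WT at 19 dpp (−0.35, SE 0.178, edgeR adjusted p = 0.201). At 25 dpp its count did not separate the genotypes. Because this gene count can include exons that a deletion leaves in place, it is no check of them. WT and KO therefore stand for the libraries so labelled, and the first and second library of a group for its replicates 1 and 2. Summed pachytene spermatocyte markers at 19 dpp came to 845 and 2056 CPM for WT and 144 and 184 CPM for KO, and at 25 dpp to 10095 and 7793 CPM for WT and 593 and 1161 CPM for KO. Summed round spermatid markers were 1318 and 494 CPM in WT at 25 dpp and between 6.74 and 12.3 CPM in the other 6 libraries, in which 1 to 5 of the 10 markers had no count. In RNA of a whole testis, fewer cells of a type and less RNA per cell cannot be told apart.

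The 8 genes lie on 7 chromosomes of GRCm38 (mm10), with the gamma pair as the only neighbours. The pore genes are Catsper1 on chromosome 19 (5335741 to 5344280, plus strand), Catsper2 on chromosome 2 (121392631 to 121413792, minus strand), Catsper3 on chromosome 13 (55784568 to 55808998, plus strand) and Catsper4 on chromosome 4 (134211970 to 134227383, minus strand). The auxiliary genes Catsperb and Catsperd lie on chromosome 12 (101404653 to 101626009, plus strand) and chromosome 17 (56628143 to 56664456, plus strand). Catsperg1 (29181321 to 29214035) and Catsperg2 (29697219 to 29727032) are both on the minus strand of chromosome 7. Catsper2 shares 18 exon bases, 0.487% of its exons, with Pdia3 on the opposite strand, and none of the other 7 shares exon bases with another annotated gene.

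Upstream sequence is shown for 1 pore gene that was near 0 outside WT at 25 dpp and 1 auxiliary gene already present at 19 dpp, because CG dinucleotides are the usual targets of DNA methyltransferases. Both are 250-base stretches of RefSeq promoter windows (GRCm38.p6) that end at the annotated start and touch no exon of GENCODE M21, printed 5′ to 3′ on the strand of the gene with CG dinucleotides in capitals. They lie at chr4:134227384-134227633 (minus strand) for Catsper4 and chr17:56627893-56628142 (plus strand) for the downstream of 2 starts of Catsperd.
Catsper4: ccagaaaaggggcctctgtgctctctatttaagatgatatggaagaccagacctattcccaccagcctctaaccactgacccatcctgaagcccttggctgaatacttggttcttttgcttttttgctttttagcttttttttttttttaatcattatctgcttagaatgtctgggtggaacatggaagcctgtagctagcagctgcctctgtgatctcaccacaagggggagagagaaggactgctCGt
Catsperd: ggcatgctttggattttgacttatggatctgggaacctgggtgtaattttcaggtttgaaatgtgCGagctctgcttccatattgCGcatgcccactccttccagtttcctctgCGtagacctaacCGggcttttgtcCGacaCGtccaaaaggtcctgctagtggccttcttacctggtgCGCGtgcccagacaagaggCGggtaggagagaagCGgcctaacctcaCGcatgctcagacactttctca
The Catsper4 stretch held 1 CG dinucleotide and the Catsperd stretch 11. In full windows of 300 bases, which run 50 bases past the start, the median of all 32851 RefSeq windows was 7 CG dinucleotides. The windows of Catsper2 (41), Catsperd (29 and 12) and Catsperg1 (9 and 8) lay above that median, and those of Catsper3 (3), Catsper4 (2) and Catsperb (1) below it. Catsperb, also an auxiliary gene already present in WT at 19 dpp, thus had fewer than Catsper4. Whether CG number goes with RNA level was not tested. Catsper1 and Catsperg2 were not among the windows. The cAMP response element TGACGTCA, searched on both strands, was in no window of these genes and in 1.79% of all windows. Its shorter core TGACG, which the full element contains, was in the Catsper2 window and in the upstream Catsperd window, and in 20.8% of all windows. Methylation is not analysed here.

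**Figure D1:**
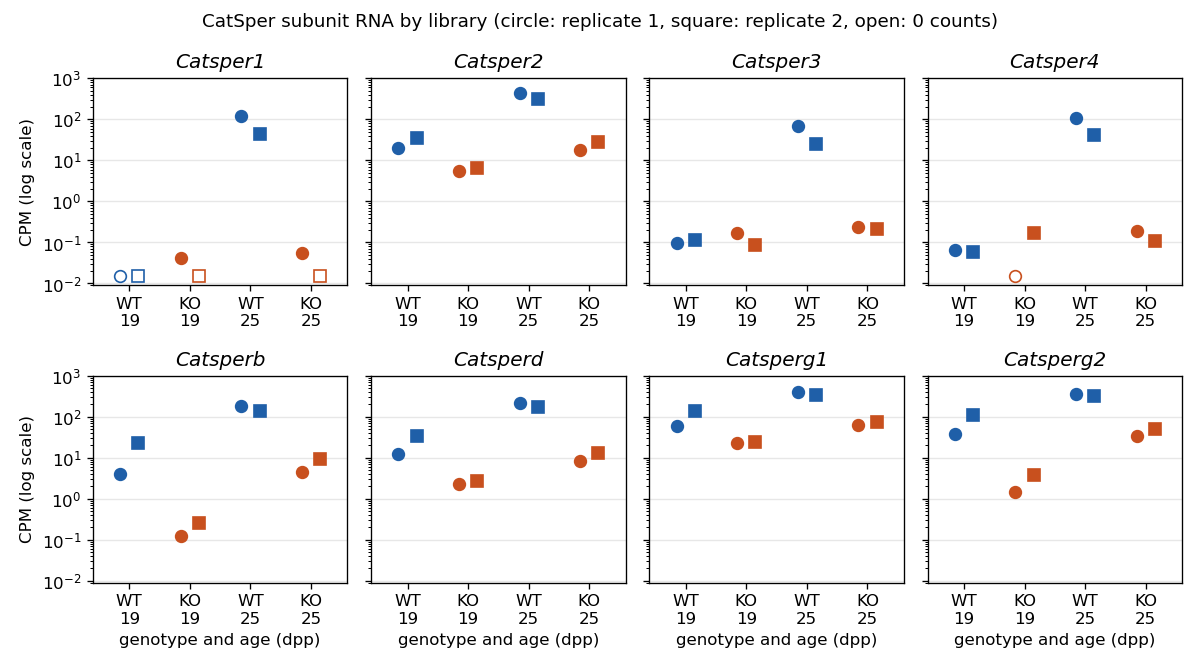
CPM (log axis) of the 8 CatSper genes in each library, by genotype and age in dpp, with WT in blue, KO in orange and open symbols at the bottom for 0 counts. Catsper1, Catsper3 and Catsper4 rise above 1 CPM in the WT libraries at 25 dpp alone, while the other 5 genes are above 4 CPM in every WT library.

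The genes showed 2 patterns across the 4 groups, as the plot of levels by library shows. Catsper1, Catsper3 and Catsper4 were read in quantity in the WT libraries at 25 dpp and stayed at or under 9 counts in each of the other 6 libraries. Catsper2, Catsperb, Catsperd, Catsperg1 and Catsperg2 were already present in WT at 19 dpp, rose further by 25 dpp, and were lower in KO at both ages. This grouping was made after the values were seen and is a description. Catsper1, Catsper3 and Catsper4 passed the filter on low counts through the WT libraries at 25 dpp. Their calls and values in comparisons with that group thus give no support to a count or a median over the 8 genes.

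Among the pore genes, Catsper1 had 4343 and 1550 counts (118 and 45.3 CPM) in WT at 25 dpp. It had 0 and 0 counts in WT at 19 dpp, 1 and 0 in KO at 19 dpp, and 2 and 0 in KO at 25 dpp. The WT group at 25 dpp thus stood apart from 3 groups at the floor of detection. Against KO at 25 dpp the ratio of summed, scaled counts was 2709, with an exact 95% interval of 750 to 22377 that covers counting error only (edgeR adjusted p = 4.69e-04). Against WT at 19 dpp, with 3 counts over the group as the floor, the gene was at least 1828-fold higher at 25 dpp (edgeR adjusted p = 6.39e-04). Between the groups at 19 dpp no fold change is given.

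Catsper3 had 2514 and 854 counts in WT at 25 dpp (68.5 and 25.0 CPM). It had 3 and 4 counts in WT at 19 dpp, 4 and 3 in KO at 19 dpp, and 9 and 6 in KO at 25 dpp. The 3 low groups were all under 0.25 CPM, and the 2 groups at 19 dpp overlapped. KO over WT at 25 dpp was −7.65 (SE 0.620, edgeR adjusted p = 3.08e-04), which left KO at 0.488% of the WT level. KO over WT at 19 dpp was 0.17 (SE 0.952, edgeR adjusted p = 0.957).

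Catsper4 had 3975 and 1466 counts in WT at 25 dpp (108 and 42.9 CPM). It had 2 and 2 counts in WT at 19 dpp, 0 and 6 in KO at 19 dpp, and 7 and 3 in KO at 25 dpp. Again WT at 25 dpp was high and the other groups lay within a few counts of 0. KO over WT at 25 dpp was −8.92 (SE 0.784, edgeR adjusted p = 3.49e-04), with KO at 0.196% of WT. At 19 dpp the value was 0.68 (SE 1.39, edgeR adjusted p = 0.787), and at these few counts a difference was not detectable.

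Catsper2, the fourth pore gene, followed the other pattern. At 19 dpp WT had 20.5 and 35.3 CPM and KO had 5.53 and 6.50 CPM. At 25 dpp WT had 445 and 314 CPM and KO had 18.1 and 27.4 CPM. The genotypes did not overlap at either age, and KO at 25 dpp overlapped WT at 19 dpp. KO over WT was −2.21 (SE 0.339, edgeR adjusted p = 0.00895) at 19 dpp and −4.06 (SE 0.355, edgeR adjusted p = 3.28e-04) at 25 dpp. Per kilobase, Catsper2 made up 98.2% and 98.8% of the summed level of the 4 pore genes in WT at 19 dpp, and 43.6% and 58.8% in WT at 25 dpp. In the KO libraries at 25 dpp it made up 94.3% and 97.3%. The pore RNAs were thus nearest to even shares in the WT libraries at 25 dpp and were nearly all Catsper2 in the KO libraries at that age.

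Of the auxiliary genes, Catsperb had the widest range. At 19 dpp WT had 4.08 and 22.2 CPM and KO had 0.126 and 0.255 CPM, which were 3 and 9 counts. At 25 dpp WT had 179 and 137 CPM and KO had 4.41 and 9.51 CPM. The WT libraries at 19 dpp differed 5.45-fold from each other, yet both lay above both KO libraries. KO over WT was −6.01 (SE 1.07, edgeR adjusted p = 0.0128) at 19 dpp and −4.51 (SE 0.822, edgeR adjusted p = 0.00331) at 25 dpp. Catsperb shares 9.27% of its 50-base exon sequences with the annotated locus Gm18795, so part of its count depends on how reads with several matches were treated, which is not given in the sources used here.

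For Catsperd, at 19 dpp WT had 12.5 and 33.4 CPM and KO had 2.35 and 2.64 CPM. At 25 dpp WT had 212 and 168 CPM and KO had 8.19 and 13.2 CPM. WT lay above KO at both ages without overlap. KO over WT was −3.20 (SE 0.506, edgeR adjusted p = 0.0102) at 19 dpp and −4.15 (SE 0.505, edgeR adjusted p = 8.11e-04) at 25 dpp.

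The gamma genes Catsperg1 and Catsperg2 are near copies, and mice have both. For Catsperg1, at 19 dpp WT had 58.0 and 140 CPM and KO had 22.3 and 24.1 CPM, and at 25 dpp WT had 391 and 346 CPM and KO had 62.6 and 75.6 CPM. For Catsperg2, at 19 dpp WT had 38.5 and 110 CPM and KO had 1.47 and 3.80 CPM, and at 25 dpp WT had 351 and 316 CPM and KO had 34.4 and 51.4 CPM. For both genes the genotypes did not overlap at either age. KO over WT at 19 dpp was −2.09 (SE 0.384, edgeR adjusted p = 0.0136) for Catsperg1 and −4.78 (SE 0.654, edgeR adjusted p = 0.00811) for Catsperg2. At 25 dpp it was −2.41 (SE 0.385, edgeR adjusted p = 0.00196) for Catsperg1 and −2.96 (SE 0.581, edgeR adjusted p = 0.00445) for Catsperg2. Of all 8 genes these kept the largest share of the WT level in KO at 25 dpp, 18.8% for Catsperg1 and 12.9% for Catsperg2, against 6.00% for Catsper2, 5.64% for Catsperd and 4.40% for Catsperb.

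Counts of the 2 gamma genes were nearly even in WT and uneven in KO at 19 dpp. The ratio of Catsperg1 to Catsperg2 counts was 1.51 and 1.27 for WT against 15.2 and 6.35 for KO at 19 dpp. It was 1.11 and 1.09 for WT against 1.82 and 1.47 for KO at 25 dpp. The KO libraries lay above the WT libraries at both ages. A two-sided exact permutation test of the log2 ratio gave p = 0.333 at each age, the smallest value that 2 libraries against 2 allow. The 2 genes share 43.0% of the 50-base exon sequences of Catsperg1 and 44.1% of those of Catsperg2, and 23.7% and 24.8% of 100-base sequences, so the split of reads between them is uncertain.

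**Figure D2:**
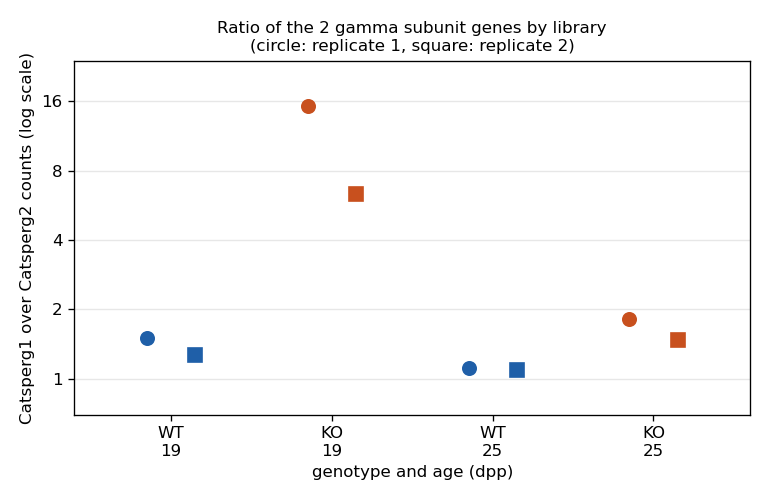
Ratio of Catsperg1 to Catsperg2 counts (log axis) in each library, by genotype and age in dpp. The KO libraries at 19 dpp stand at 15.2 and 6.35, and the other 6 libraries lie between 1.09 and 1.82.

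The comparison of KO with WT at 19 dpp asks how the mutant testis differed while the first germ cells of WT were in meiosis. Catsper2, Catsperb, Catsperd, Catsperg1 and Catsperg2 fell, and the 3 genes not called were Catsper1, Catsper3 and Catsper4. The 5 calls of 8 stand beside 22.0% of all genes called, 13.2% falling and 8.80% rising. The median of the 8 fitted values was −2.15, against 0.00 over all genes tested. It includes the value of Catsper1, which had 1 count in all at 19 dpp. Of the 10 pachytene and the 10 early meiotic markers 9 each fell as well, and 9 of the 10 Sertoli markers rose, with sums of 4584 and 3594 CPM for WT and 8117 and 7171 CPM for KO. Their part in the result was not tested. Without replicate 1 of KO at 19 dpp edgeR called 0 of the 8 genes and 0 of all genes (5 and 5298 at an unadjusted p under 0.05), with edgeR adjusted p from 0.0814 to 0.120 for the 5. Without replicate 2 of KO at 19 dpp it called 3, as Catsperb and Catsperg1 had edgeR adjusted p of 0.0627 and 0.0630, and the value of Catsperg2 was −5.61 and that of Catsperb −6.61. Without replicate 2 of WT at 19 dpp, in which all 5 were higher, the values were −4.32 for Catsperb, −2.32 for Catsperd, −1.32 for Catsperg1 and −3.83 for Catsperg2, all still called, and without replicate 1 that of Catsperb was −6.76.

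The comparison at 25 dpp asks the same question at the age when the WT testis held round spermatid RNA. All 8 genes fell, beside 63.5% of all genes called, 37.4% falling and 26.1% rising. The median was −4.33, against −0.12 over all genes tested. It includes Catsper1, Catsper3 and Catsper4, which passed the filter on low counts through WT at 25 dpp, so it gives no support. The other genes ran from −2.41 for Catsperg1 to −4.51 for Catsperb. By size the falls ran from −2.41 for Catsperg1 to −7.65 for Catsper3 and −8.92 for Catsper4, with Catsper1 at its ratio of 2709. All 8 calls remained when any 1 library was left out. For Catsper1, Catsper3 and Catsper4, near 0 outside WT at 25 dpp, that outcome gives no support. Without the first WT library the values were −6.66 for Catsper3 and −8.02 for Catsper4, and without the second KO library that of Catsperb was −5.16. The KO value of Catsper1 rests on 2 counts in 1 library. All 10 pachytene, all 10 round spermatid and all 10 elongating spermatid markers fell too, and so did 4 of 6 Leydig markers. Either spermatid list summed to at most 12.8 CPM in each library outside WT at 25 dpp. Its genes could thus pass the filter on low counts through that group, and their falls against it give no support. All 10 Sertoli markers rose, with a median of 1.44 and sums of 1757 and 2295 CPM for WT and 6930 and 5741 CPM for KO, as did 9 of 10 spermatogonia markers, while of the early meiotic markers 2 rose and 2 fell. The part of these cell types in the result was not tested.

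**Figure D3:**
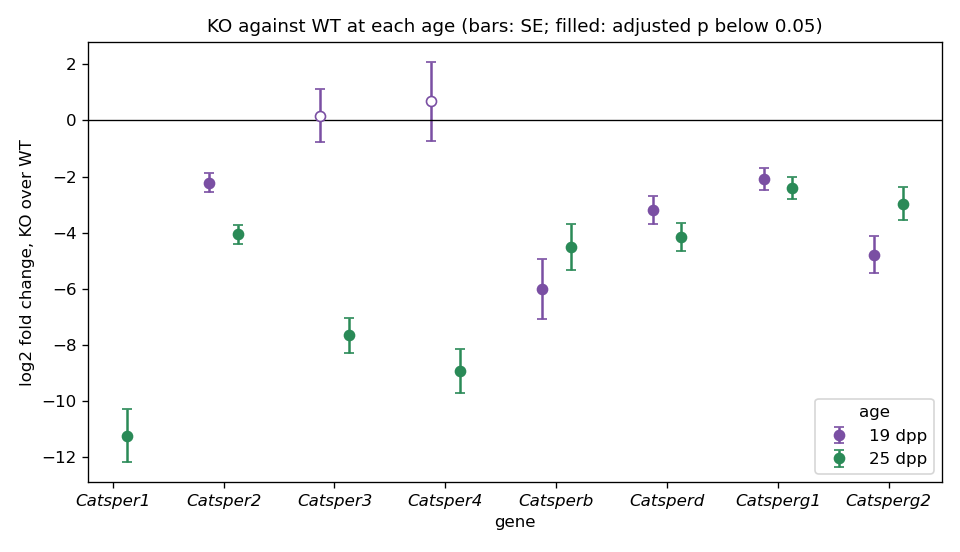
Log2 fold change of KO over WT for each gene at 19 dpp (purple) and 25 dpp (green), with bars for the SE and filled points for edgeR adjusted p below 0.05. All 8 genes lie below 0 at 25 dpp, and at 19 dpp Catsper3 and Catsper4 lie near 0 with open points, while Catsper1 has no value there.

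Whether the KO effect itself changed with age was tested as an interaction. It was −1.85 (SE 0.458, edgeR adjusted p = 0.0341) for Catsper2, −7.82 (SE 1.30, edgeR adjusted p = 0.0105) for Catsper3 and −9.60 (SE 1.93, edgeR adjusted p = 0.0202) for Catsper4. These 3 of 8 genes had a lower KO over WT value at 25 than at 19 dpp, beside 19.1% of all genes called, 11.4% with a lower and 7.68% with a higher value. Catsper3 and Catsper4 passed the filter on low counts through WT at 25 dpp, so their calls give no support to this count. The auxiliary genes were not called, with differences of 1.5 (SE 1.36, edgeR adjusted p = 0.485) for Catsperb, −0.95 (SE 0.661, edgeR adjusted p = 0.353) for Catsperd, −0.32 (SE 0.521, edgeR adjusted p = 0.724) for Catsperg1 and 1.82 (SE 0.802, edgeR adjusted p = 0.156) for Catsperg2. Catsper1, with 1 count in all at 19 dpp, is given no difference. The call of Catsper2 ended when any library but the second WT library of either age was left out, with values from −1.51 to −2.18 and edgeR adjusted p from 0.0513 to 0.105. That of Catsper3 ended without replicate 1 of KO at 19 dpp (−7.34, edgeR adjusted p = 0.0707), and its value was −6.88 without the first WT library at 25 dpp. That of Catsper4 ended without replicate 2 of KO at 19 dpp, the library with its only counts in that group (−4.77, edgeR adjusted p = 1.00), and without either KO library at 25 dpp (edgeR adjusted p = 0.0569 and 0.0528). With the call kept, it was −10.36 without the first KO library at 19 dpp and −8.74 without the first WT library at 25 dpp. Leaving out replicate 2 of WT at 19 dpp called Catsperd (−1.83) and Catsperg1 (−1.10), for 5 calls in all, and leaving out replicate 1 called Catsperg2 (2.38). A single call was left without either KO library at 19 dpp or at 25 dpp.

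Between 19 and 25 dpp in WT all 8 genes rose, beside 60.3% of all genes called, 34.9% rising and 25.4% falling. The median was 3.67, against 0.01 over all genes tested. It includes Catsper1, Catsper3 and Catsper4, which passed the filter on low counts through WT at 25 dpp, so it gives no support. The other genes ran from 1.90 for Catsperg1 to 3.76 for Catsper2. Among the auxiliary genes the rise was 3.58 (SE 0.783, edgeR adjusted p = 0.00786) for Catsperb, 3.05 (SE 0.478, edgeR adjusted p = 0.00251) for Catsperd, 1.90 (SE 0.378, edgeR adjusted p = 0.00554) for Catsperg1 and 2.17 (SE 0.562, edgeR adjusted p = 0.0150) for Catsperg2. Among the pore genes it was 3.76 (SE 0.350, edgeR adjusted p = 4.97e-04) for Catsper2, 8.73 (SE 0.672, edgeR adjusted p = 4.13e-04) for Catsper3 and 10.20 (SE 0.863, edgeR adjusted p = 4.55e-04) for Catsper4. Whether one gene rose by more than another was not tested. The call of Catsperg2 ended without replicate 1 (edgeR adjusted p = 0.0739) or replicate 2 (edgeR adjusted p = 0.0531) of WT at 25 dpp. Without replicate 2 of WT at 19 dpp the rises were 5.28 for Catsperb, 3.92 for Catsperd, 2.67 for Catsperg1 and 3.11 for Catsperg2, and without replicate 1 that of Catsperb was 2.83. Without replicate 1 of WT at 25 dpp they were 7.77 for Catsper3 and 9.32 for Catsper4.

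Per kilobase in WT at 25 dpp, Catsper2 had the highest level, 103 ± 25.0 CPM per kilobase (SD, n = 2). Catsperd followed at 52.9 ± 8.54, Catsperg1 at 52.3 ± 4.52 and Catsperg2 at 47.4 ± 3.45 CPM per kilobase. Then came Catsper1 at 37.4 ± 23.6, Catsper4 at 36.0 ± 22.0, Catsper3 at 34.4 ± 22.6 and Catsperb at 28.6 ± 5.43 CPM per kilobase. Catsper2 was the highest in both libraries, and from Catsperd down each gene overlapped the next in that order over the 2 libraries.

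The large SDs of Catsper1, Catsper3 and Catsper4 came with a difference between the 2 WT libraries at 25 dpp. Replicate 1 was 2.61-fold above replicate 2 for Catsper1, 2.74-fold for Catsper3 and 2.53-fold for Catsper4. It was 1.42-fold above for Catsper2, 1.31-fold for Catsperb, 1.26-fold for Catsperd, 1.13-fold for Catsperg1 and 1.11-fold for Catsperg2. The summed markers of round spermatids differed 2.67-fold between the same libraries, those of elongating spermatids 5.14-fold, and those of pachytene spermatocytes 1.30-fold. The ratio was 0.969 for the early meiotic markers and from 0.655 to 0.875 for the lists of spermatogonia and of 5 somatic cell types of the testis. Catsper1, Catsper3 and Catsper4 thus lay next to the round spermatid markers in this 1 pair of libraries. Catsper2, Catsperb and Catsperd lay nearest to the pachytene markers of these lists, and Catsperg1 and Catsperg2 between those and the early meiotic markers, which is a description without a test.

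**Figure D4:**
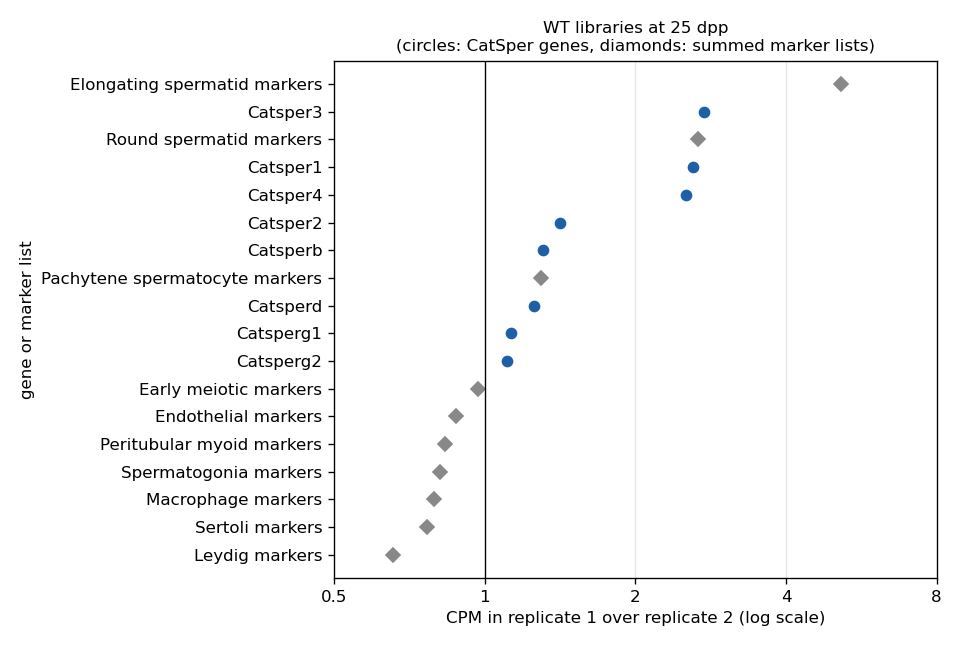
CPM in replicate 1 over replicate 2 of WT at 25 dpp (log axis) for the 8 CatSper genes (circles) and for summed marker lists of testis cell types (diamonds). Catsper1, Catsper3 and Catsper4 lie between 2.53 and 2.74 beside the round spermatid markers at 2.67, and the other 5 genes between 1.11 and 1.42, with the pachytene markers at 1.30 and the early meiotic markers at 0.969.

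The WT libraries at 19 dpp also differed. Replicate 2 was above replicate 1 by 1.73-fold for Catsper2, 5.45-fold for Catsperb, 2.67-fold for Catsperd, 2.41-fold for Catsperg1 and 2.85-fold for Catsperg2, and by 2.43-fold for the summed pachytene markers. The summed markers of other cells differed too, by 3.79-fold for Leydig cells, 2.36-fold for macrophages and 5.13-fold for elongating spermatids (2.50 and 12.8 CPM, with 4 of the 10 markers at 0 in each library), and by 1.18-fold for early meiosis, while Sertoli markers were at 0.784 of replicate 1. The library with more RNA of all 5 genes thus had more pachytene, Leydig and macrophage marker RNA, and their part in the difference was not tested.

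Between 19 and 25 dpp in KO, Catsper2, Catsperb, Catsperd, Catsperg1 and Catsperg2 rose, 5 of 8 beside 19.1% of all genes called, 10.2% rising and 8.87% falling. The rises were 1.91 (SE 0.337, edgeR adjusted p = 0.0131) for Catsper2, 5.08 (SE 1.07, edgeR adjusted p = 0.0230) for Catsperb, 2.09 (SE 0.496, edgeR adjusted p = 0.0319) for Catsperd, 1.57 (SE 0.378, edgeR adjusted p = 0.0331) for Catsperg1 and 3.99 (SE 0.636, edgeR adjusted p = 0.0112) for Catsperg2. Catsper3 (edgeR adjusted p = 0.489) and Catsper4 (edgeR adjusted p = 0.777) were not called, and Catsper1 was under 3 counts in both groups. The median of the 8 fitted values, that of Catsper1 included, was 1.74, against 0.00 over all genes tested. Calls here depended on single libraries: edgeR called 0 of the 8 without the first KO library at 19 dpp or without the second at 25 dpp, with 5 at an unadjusted p under 0.05 each time. It called 2 without the second KO library at 19 dpp, 2 without the second WT library at 25 dpp, and 3 without the first KO library at 25 dpp. The value of Catsperb was 5.72 and that of Catsperg2 4.85 without replicate 2 of KO at 19 dpp, and that of Catsperb 4.43 without replicate 2 of KO at 25 dpp. By limma-voom 2 of the 8 were called, and with libraries scaled to the sum of Sertoli markers 1.

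Set against the summed pachytene markers of the same library, Catsper2 and the auxiliary genes spanned a smaller range than in CPM, as the plot relative to those markers shows. Catsperd was 1.48% and 1.62% of that sum for WT against 1.63% and 1.44% for KO at 19 dpp, and 2.10% and 2.16% for WT against 1.38% and 1.14% for KO at 25 dpp. Catsper2 was 2.42% and 1.72% for WT against 3.85% and 3.53% for KO at 19 dpp, and 4.41% and 4.03% for WT against 3.06% and 2.36% for KO at 25 dpp. For these 2 genes the KO share was below the WT share at 25 dpp, and at 19 dpp it overlapped with WT for Catsperd and lay above WT for Catsper2. Catsperb was below WT in KO at both ages, at 0.482% and 1.08% for WT against 0.0875% and 0.139% for KO at 19 dpp, and at 1.78% and 1.76% for WT against 0.743% and 0.819% for KO at 25 dpp. Catsperg1 was above WT in KO at 19 dpp (15.5% and 13.1% against 6.86% and 6.81%) and at 25 dpp (10.6% and 6.51% against 3.87% and 4.44%). Catsperg2 was below WT in KO at 19 dpp (1.02% and 2.07% against 4.56% and 5.35%) and above at 25 dpp (5.81% and 4.42% against 3.47% and 4.06%).

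The choice of reference set these shares. Against the summed markers of early meiosis, which at 25 dpp came to 3085 and 3184 CPM for WT and 2305 and 3120 CPM for KO, Catsper2 was 14.4% and 9.86% for WT against 0.786% and 0.878% for KO at that age. The members' low level in KO at 25 dpp therefore came with low pachytene markers and with early meiotic markers near or within the WT range.

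**Figure D5:**
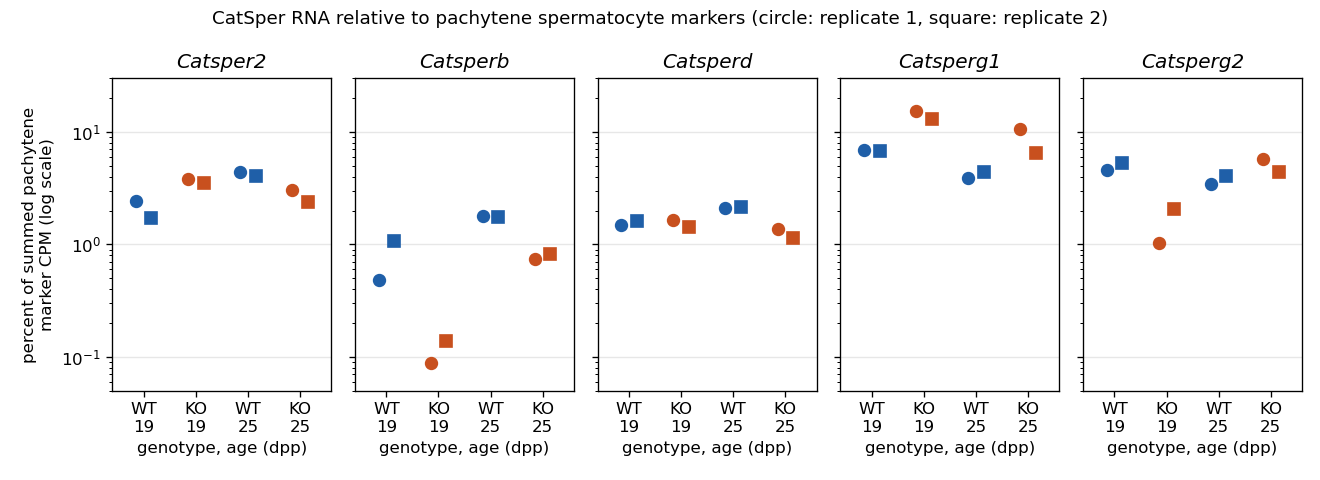
CPM of Catsper2, Catsperb, Catsperd, Catsperg1 and Catsperg2 as a percent of the summed CPM of 10 pachytene spermatocyte markers in the same library (log axis), by genotype and age in dpp. Catsperd stays between 1.14% and 2.16% in all 8 libraries, Catsperg1 is higher in KO than in WT at both ages, and Catsperb is lower.

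Other known parts of the complex showed both patterns. Of the 9 listed genes 6 were found in the files: Catsperz and Efcab9, whose products form a calcium-sensing pair on the channel, C2cd6 (entered as Als2cr11), needed for assembly of the channel in the tail, and Tmem249, Slco6c1 and Trim69, whose products were found with the channel. At 19 dpp 4 of the 6 fell in KO and none rose, beside 13.2% of all genes falling. Catsperz had −5.67 (SE 0.809, edgeR adjusted p = 0.00855), C2cd6 −3.13 (SE 0.570, edgeR adjusted p = 0.0135), Slco6c1 −6.57 (SE 1.46, edgeR adjusted p = 0.0238) and Trim69 −6.77 (SE 1.39, edgeR adjusted p = 0.0189). All 6 fell at 25 dpp, beside 37.4% of all genes, with a median of −5.84. For Efcab9, at 19 dpp WT had 1.06 and 0.891 CPM and KO had 0.545 and 0.795 CPM, and at 25 dpp WT had 79.4 and 30.2 CPM and KO had 0.892 and 0.887 CPM. Tmem249 was at 43.6 and 20.6 CPM in WT at 25 dpp and had at most 5 counts in each other library. It thus passed the filter through that group, and its calls against it add no support to the count of 6 or its median. Efcab9 and Tmem249 thus resembled Catsper1, Catsper3 and Catsper4, and their KO effects differed between the ages, by −5.42 (SE 0.720, edgeR adjusted p = 0.00649) for Efcab9 and −9.72 (SE 1.58, edgeR adjusted p = 0.00988) for Tmem249. Without replicate 2 of KO at 19 dpp the second was −8.50 (edgeR adjusted p = 0.147). Catsperz shares 587 exon bases, 46.5% of its exons, with Kcnk4 on the same strand, so its count is uncertain. The 4 calls at 19 dpp all ended without replicate 1 of KO at 19 dpp, and those of C2cd6, Slco6c1 and Trim69 also without replicate 2, while that of Slco6c1 also ended without replicate 2 of WT at 25 dpp (edgeR adjusted p = 0.0535). Without a filter on low counts those of C2cd6, Slco6c1 and Trim69 ended (edgeR adjusted p = 0.0582, 0.109 and 0.0875), and by limma-voom those of Slco6c1 and Trim69 (limma-voom adjusted p = 0.0771 and 0.0577).

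CatSper opening depends on sperm membrane voltage, pH and bicarbonate. A list of 12 sperm ion transport genes held genes that act on these and others, such as the calcium pump gene Atp2b4. Of the 12, 4 fell and none rose in KO at 19 dpp, and 10 fell at 25 dpp. The medians were −0.18 (−0.65 with genes at 0 in a group taken at their bound) and −3.60. Of all genes 13.2% fell at 19 dpp and 37.4% at 25 dpp. A gene at 0 in a group at 19 dpp could pass the filter on low counts through WT at 25 dpp. Any fall of such a gene against WT at 25 dpp gives no support to the count of 10 or its median. For Kcnu1, the sperm potassium channel SLO3, at 19 dpp WT had 1.51 and 1.81 CPM and KO had 1.55 and 1.93 CPM. At 25 dpp WT had 102 and 46.8 CPM and KO had 1.76 and 1.56 CPM, so that only the WT libraries at 25 dpp were high. Its KO effect was −5.48 (SE 0.419, edgeR adjusted p = 3.08e-04) at 25 dpp. Slc26a8, an anion transporter of sperm, fell at both ages, by 1.78 on the log2 scale (SE 0.225, edgeR adjusted p = 0.00714) and by 3.49 (SE 0.234, edgeR adjusted p = 3.08e-04). Atp2b4, a plasma membrane calcium pump that many tissues express, changed least of those named, with −0.46 (SE 0.140, edgeR adjusted p = 0.0218) at 25 dpp.

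Of 11 genes of the sperm response to calcium and cAMP, 5 fell and 1 rose in KO at 19 dpp and 10 fell at 25 dpp. The medians were −0.90 and −4.04. Of all genes 22.0% were called at 19 dpp, 13.2% falling, and 63.5% at 25 dpp, 37.4% falling. In the first WT library at 19 dpp 2 of the 11 had no count. Plcz1, the sperm phospholipase that activates the egg, had 155 and 52.2 CPM in WT at 25 dpp and at most 0.115 CPM elsewhere. Its KO group at 25 dpp held 3 counts, a ratio of 2292 with an exact 95% interval of 784 to 11117. Plcz1 passed the filter on low counts through WT at 25 dpp, so its call against that group adds no support to the count of 11 or its median. The same holds for any other of the 11 that was near 0 outside that group. Akap3, a scaffold of the tail's fibrous sheath, changed by −7.45 on the log2 scale at 25 dpp (SE 0.656, edgeR adjusted p = 3.63e-04), and the sperm calcineurin subunit gene Ppp3r2 by −6.17 (SE 0.943, edgeR adjusted p = 0.00171). Prkaca, the catalytic subunit of protein kinase A, was the gene that rose at 19 dpp (0.60, SE 0.125, edgeR adjusted p = 0.0160), and it fell at 25 dpp (−0.76, SE 0.125, edgeR adjusted p = 0.00159).

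The pores of the other voltage-gated calcium channels, used in nerve, muscle and endocrine cells, did not move as 1 group. Of 10 genes 9 were tested, 1 rose in KO at 19 dpp, and 2 rose and 6 fell at 25 dpp, with medians of 0.19 and −1.61. The 1 of 9 called at 19 dpp stands beside 22.0% of all genes, and the 8 of 9 at 25 dpp beside 63.5%. For Cacna1h, a T-type channel, at 19 dpp WT had 50.9 and 51.7 CPM and KO had 51.0 and 48.8 CPM, and at 25 dpp WT had 465 and 347 CPM and KO had 25.4 and 24.7 CPM. It was level at 19 dpp and fell at 25 dpp (−4.02, SE 0.171, edgeR adjusted p = 2.26e-04). Cacna1g, another T-type channel, fell at 25 dpp (−3.32, SE 0.363, edgeR adjusted p = 4.16e-04). Cacna1d, an L-type channel, went the other way, with 0.90 (SE 0.180, edgeR adjusted p = 0.0141) at 19 dpp and 0.98 (SE 0.182, edgeR adjusted p = 0.00255) at 25 dpp.

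Genes whose pattern was most like the mean scaled log2(CPM + 0.5) of the 8 over the 8 libraries were Dhx30, Snx25, Supt20, Cep63 and Phkg2, with Pearson correlations of 0.9997 down to 0.9993. Among 17628 genes compared, 2925 had a correlation over 0.95, so this likeness is common in these libraries, which the genes all share. The sizes differed: at 25 dpp the KO effect of Dhx30 was −1.60 (SE 0.150, edgeR adjusted p = 3.21e-04) and that of Phkg2, the liver and testis catalytic subunit of phosphorylase kinase, −3.70 (SE 0.389, edgeR adjusted p = 5.17e-04).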

How the data were processed

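The samples were whole testes of C57BL/6 mice, 2 libraries in each of 4 groups of Dnmt3a genotype and age. Per the labels' protocols, extraction was by Trizol with a DNase step, and the library kit keeps strand. Per the submitters' processing notes, the authors used STAR 2.7.0a, mm10 and featureCounts 1.5.1. The deposited values are unnormalized counts per gene. The annotation, the strand setting and the treatment of reads with several matches are not given in the sources used here.

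Of 55292 entries, 1205 repeat families were kept out, which left 54087 genes. After TMM scaling and filterByExpr by group, 23353 genes were fitted in edgeR 4.0.16 under R 4.3.3 with robust quasi-likelihood, all 8 libraries and a mean for each group, so that 4 residual degrees of freedom remained. The 5 tests took the genotypes at 19 dpp, the genotypes at 25 dpp, the ages in WT, the ages in KO, and the interaction of genotype and age. Each SE was derived from the log2 fold change and its F statistic. A floor of 3 counts per group, 0.0423 to 0.0508 CPM, and the exact intervals cover counting error only. The procedure was tested on simulated data with far fewer changed genes than were called here at 25 dpp. That test is no check of these calls. Deviations of same-numbered libraries had correlations of −0.0877 to 0.361 between groups, highest for KO at 25 dpp with WT at 19 dpp. The main fit did not pair libraries by number.

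The 8 genes and all lists were chosen with earlier results of these data known. Named were the 8 and the other complex genes found. Each pathway list gave the 2 with the smallest p in KO against WT at 25 dpp. It also gave the 2 with the highest mean CPM over the 8 libraries. Catspere1, Catspere2 and Tmem262 had no matching entry. Likeness used genes of at least 1 CPM on average, without Gm, Rik and LOC names. Exons and positions are from GENCODE M21 (GRCm38) and promoters from RefSeq (GRCm38.p6), which held 6 of the 8 genes. Alternatives were other scalings and filters, DESeq2 1.42.0, limma-voom (limma 3.58.1), a replicate block, only the groups compared, the gamma genes summed, and leaving out each library, where a lone library is assumed to vary like the others.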

Additional observations from a re-analysis of the deposited data

Results flagged for a closer look

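The KO effect differed between the ages for 3 of the 8 genes, by the test of the difference itself in edgeR. Over all genes 19.1% were called, 11.4% with a lower and 7.68% with a higher value at 25 than at 19 dpp. The difference was −1.85 for Catsper2 (edgeR adjusted p = 0.0341), which was lower in KO at both ages. For Catsper3 it was −7.82 (edgeR adjusted p = 0.0105) and for Catsper4 −9.60 (edgeR adjusted p = 0.0202). Catsper3 and Catsper4 had at most 6 counts in any library at 19 dpp, so their difference between ages rests on the WT libraries at 25 dpp. Both passed the filter on low counts through those libraries, so their calls give no support to the count of 3. Each of the 3 calls ended when at least 1 single library was left out, Catsper2 in 6 of 8 cases. The cause was not tested.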

How the results depend on the processing

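The 8 falls of KO at 25 dpp and the 8 rises of WT with age kept their direction under every alternative run, and no called value of the 8 changed sign. Catsper1, Catsper3 and Catsper4 were near 0 outside WT at 25 dpp, so their direction against it could not turn and gives no support. Values that were not called did: without 1 library the difference between the KO effects went from 1.5 to −0.20 for Catsperb and from −0.32 to 0.17 for Catsperg1 (0.21 with total counts), and KO over WT at 19 dpp from 0.17 to −0.30 for Catsper3 and from 0.68 to −4.06 for Catsper4. With all libraries 5 genes were called in KO against WT at 19 dpp (0 to 5 with 1 library left out), 5 in 25 against 19 dpp in KO (0 to 5) and 3 in the difference between the KO effects (1 to 5). In KO with age the count was 1 with Sertoli marker scaling, 2 without a filter and 2 by limma-voom. Over all genes, 5145 were called in KO against WT at 19 dpp, 9233 with Sertoli marker scaling, 7830 by DESeq2 and 0 to 5685 with 1 library left out. In KO with age 4451 were called, 750 with Sertoli marker scaling, 7318 by DESeq2, 6806 with only the groups compared and 17 to 4993 with 1 library left out. For the difference these were 4464, 7515 with total counts, 2301 with Sertoli marker scaling, 7884 by DESeq2 and 1209 to 5571 with 1 library left out.

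Scaling moved the median of all genes, for KO against WT at 25 dpp from −0.12 to 0.34 with total counts and −1.78 with Sertoli markers, and for WT with age from 0.01 to −0.51 and 1.02. The share of calls that rose went at 19 dpp from 39.9% to 27.3% and 0.628%, at 25 dpp from 41.1% to 55.9% and 0.775%, in WT with age from 57.9% to 39.3% and 98.3%, in KO with age from 53.4% to 66.7% with Sertoli markers, and for the difference from 40.2% to 73.8% and 2.82%. Without a filter edgeR did not call Catsperg2 in WT with age (adjusted p = 0.0769), Catsperb in KO against WT at 19 dpp (adjusted p = 0.0592, which left 4 calls) or the difference for Catsper4 (adjusted p = 0.0511), nor with Sertoli markers the difference for Catsper2 (adjusted p = 0.0628).

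Correlations of deviations between same-numbered libraries (−0.0877 to 0.361) do not settle whether the replicate numbers pair the libraries. With the replicate block, edgeR called 5, 8, 8, 5 and 4 of the 8 genes in the contrasts in the order of the methods and 4963, 14723, 14027, 4348 and 4348 of all genes. Depth limits Catsper1, Catsper3 and Catsper4 outside WT at 25 dpp, where a few counts decide each value.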
